A study of Mus musculus with 12 samples.

Results

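Reactive astrocyte genes were examined in the hippocampus of mice in which an enhancer of *Csf1r*, the receptor that microglia depend on, was deleted, with the ileum as a second tissue. The set holds 32 genes, taken from the published panels that describe how astrocytes respond to injury or inflammation, of 18820 genes with a transcript cluster of their own on the arrays, and 30 of the 32 could be measured. *Ggta1* had no cluster and *Amigo2* lay only on clusters shared with *Pced1b*, so neither has a value. RNA of whole tissue was hybridised to 12 Affymetrix Mouse Gene ST arrays in 4 groups of 3. The groups were hippocampus of FIRE -/- and of FIRE +/+ mice, and ileum of FIRE -/- and of FIRE +/+ mice. The ileum samples were titled Peyer's Patches. All mice were aged 6 weeks, of the strain C57BL/6J/CBA, and were perfused with saline. FIRE -/- mice are homozygous for a germline deletion of the fms-intronic regulatory element, so every cell carries it, and the line goes back to 1 founder male bred to C57BL/6J. FIRE +/+ mice carry the intact element. Hippocampus arrays are named A09, B09 and H07 (FIRE -/-) and E07, F07 and G07 (FIRE +/+) by the codes in their labels, and ileum arrays F09, G09 and H09 (FIRE -/-) and C09, D09 and E09 (FIRE +/+). A09, E07, F07, G09, C09 and D09 were labelled male and the others female. Labelled sex was thus not balanced between genotypes in either tissue. The labels do not say whether hippocampus and ileum came from the same animals, and p-values measure the spread between these samples only.

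Astrocytes support neurons, buffer potassium and glutamate, and line the blood vessels and the surface of the brain. After injury or infection they enlarge and build more intermediate filaments, of which GFAP is the classical marker, and they secrete protease inhibitors, acute-phase proteins and matrix proteins, a change known as reactivity. Signals of the interleukin-6 family acting through the transcription factor STAT3, and interferons and other inflammatory cytokines, are among the best known inducers. Panels defined in mice divide the induced genes into pan-reactive genes, A1 genes, which were described after bacterial lipopolysaccharide and can be induced in culture by IL-1α, TNF and C1q made by microglia, and A2 genes, which were described after ischaemia. In whole tissue the same transcripts can also come from vessels, meninges, choroid plexus or immune cells, and fewer cells of a type cannot be told apart from less RNA per cell.

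All values are log2 signals on the scale of robust multi-array averaging (RMA), which the authors computed. Pairs of hippocampus arrays correlated over all clusters with r from 0.991 to 0.996 and pairs of ileum arrays with r from 0.981 to 0.992. The mean signal of 10 hippocampal neuron genes was 9.74 to 9.93 on hippocampus arrays and that of 10 genes of ileal epithelium 10.47 to 10.96 on ileum arrays. *Csf1r*, the gene whose enhancer is deleted, was at 3.58, 3.69 and 3.65 on A09, B09 and H07, against 8.34, 8.31 and 8.15 on E07, F07 and G07. The genotypes of the hippocampus arrays thus matched their labels. In the ileum *Csf1r* was at 6.44, 7.53 and 6.86 on F09, G09 and H09, against 7.41, 8.17 and 7.39 on C09, D09 and E09. The genotypes overlapped there, so the labels of the ileum arrays could not be checked by this gene. Array B09 was labelled female, but *Xist* was at 2.44 and *Eif2s3y*, a gene of the Y chromosome, at 6.18, levels like those of the arrays labelled male, so counts and values without B09 are given too. Only H07 among the FIRE -/- hippocampus arrays had the code number 07 of the FIRE +/+ arrays. The labels do not say what the code number stands for. In the ileum, F09 of the FIRE -/- group and D09 of the FIRE +/+ group had a mean signal of 9 B cell genes of 7.49 and 7.45, against 3.46 to 3.97 on the other ileum arrays. The title Peyer's Patches thus does not tell how much patch tissue each ileum sample held.

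In the hippocampus no reactive astrocyte gene passed the threshold of an adjusted p of 0.05 in limma's test, which was fitted over all 21218 clusters with a single symbol, and the smallest adjusted p was 0.142, for *Gfap*. By the same test 0.448% of all clusters passed, and each of those was lower in FIRE -/- mice. Below the threshold the genes leaned to one side. Of the 30 measured genes, 25 had a log2 fold change above 0 in FIRE -/- hippocampus, against 52.5% of all clusters, and the median was 0.15, against 0.0077 over all clusters. At an unadjusted p under 0.05, 10 genes were higher, where 1.79% of all clusters were, and 1 gene was lower, where 2.95% were. In 9 genes all FIRE -/- arrays lay above all FIRE +/+ arrays, as in 4.46% of all clusters, and in 2 genes all lay below, as in 5.20%. A test of each cluster on its own spread, without the moderation of limma, also called none of the 30, with 7 genes higher and 1 lower at an unadjusted p under 0.05. Without B09 the limma counts at that p were 8 higher and 1 lower, and still no gene was called. With 3 arrays per genotype an exact permutation test of any single gene cannot give a p under 0.1.

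Of the 3 filament and calcium-binding genes, 2 were higher at an unadjusted p under 0.05, where 1.79% of all clusters were. Both were filament proteins. *Gfap*, the intermediate filament protein of astrocytes, was at 9.59, 9.77 and 9.70 on A09, B09 and H07 (FIRE -/-), against 8.99, 9.28 and 9.13 on E07, F07 and G07 (FIRE +/+). All FIRE -/- arrays were above all FIRE +/+ arrays, by a gap of 0.31 between the nearest arrays. The mean was 9.69 ± 0.09 in FIRE -/- and 9.13 ± 0.15 in FIRE +/+ hippocampus (SD, n = 3 each), which is a 1.47-fold higher signal and a log2 fold change of 0.56 (95% confidence interval 0.31 to 0.80). Its adjusted p in limma was 0.142, at an unadjusted p of 0.00077. The call depended on how the variance was moderated, since with an intensity trend and robust estimates the adjusted p of *Gfap* was 0.0127, and no other member was called under that setting. *Vim*, the filament protein vimentin, which astrocytes share with vessel and meningeal cells, was at 9.84, 10.04 and 9.79 in FIRE -/- against 9.56, 9.54 and 9.68 in FIRE +/+ hippocampus. The genotypes did not overlap, but the nearest arrays, H07 and G07, were 0.11 apart. The log2 fold change came to 0.30 (standard error, SE, 0.10, with an adjusted p of 0.82 in limma). *S100a10*, a calcium-binding-family protein that partners annexin A2, overlapped between genotypes, with means of 8.23 ± 0.19 in FIRE -/- and 8.20 ± 0.09 in FIRE +/+ hippocampus (SD, n = 3 each).

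**Figure D1:**
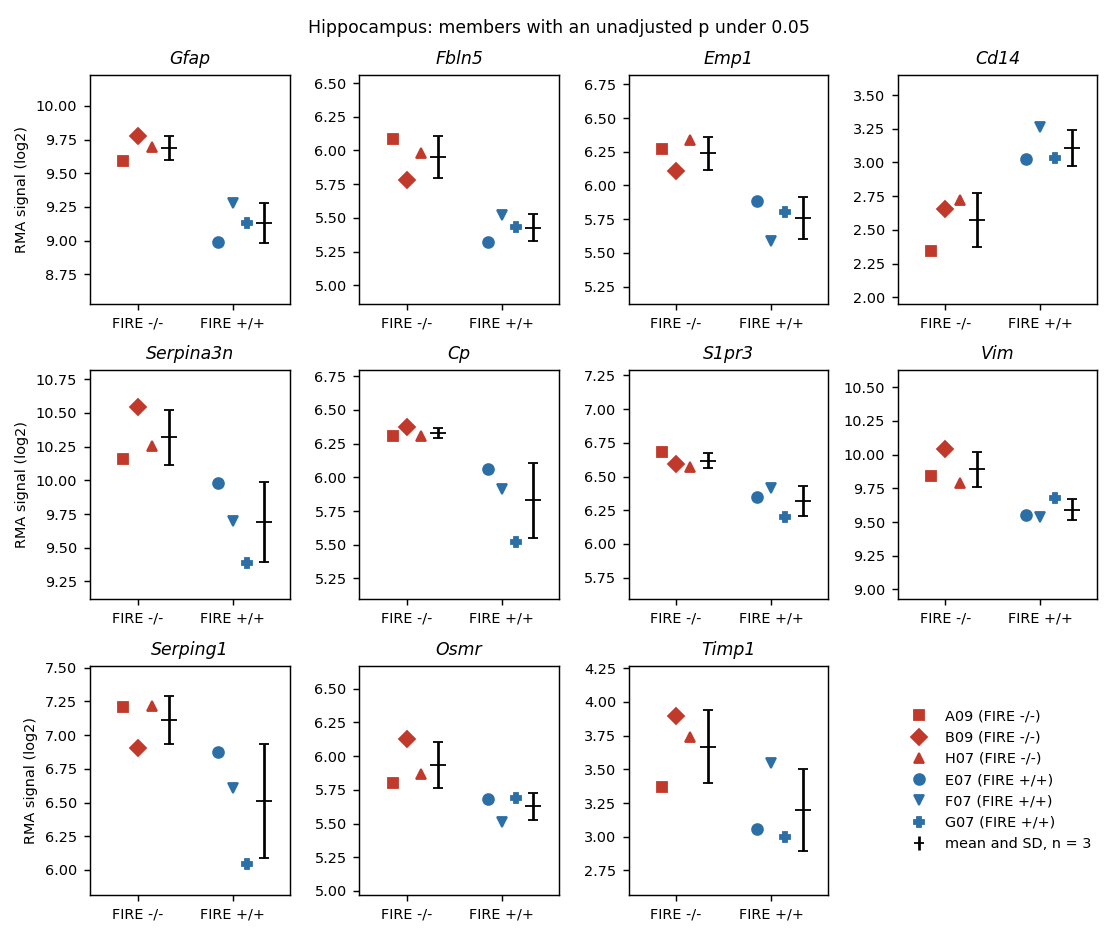
RMA log2 signal in the hippocampus (y axis, 1 panel per gene, each with its own range) of the 11 reactive astrocyte genes with an unadjusted limma p under 0.05, by genotype (x axis). Symbols are arrays, and crossed bars are the mean and SD of 3 arrays. FIRE -/- arrays lay above all FIRE +/+ arrays in *Gfap*, *Fbln5*, *Emp1*, *Serpina3n*, *Cp*, *S1pr3*, *Vim*, *Serping1* and *Osmr*, overlapped in *Timp1*, and lay below in *Cd14*.

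Among the 9 secreted proteins, 5 were higher at an unadjusted p under 0.05, where 1.79% of all clusters were. None was lower, where 2.95% were, and 8 had a log2 fold change above 0, against 52.5% of all clusters. The serine protease inhibitors *Serpina3n* and *Serping1* had the largest differences of the 9. *Serpina3n*, one of the strongest markers of reactive astrocytes in mice, was at 10.16, 10.55 and 10.25 on A09, B09 and H07, against 9.98, 9.70 and 9.39 on E07, F07 and G07. The lowest FIRE -/- array, A09, lay 0.18 above the highest FIRE +/+ array, E07. The log2 fold change came to 0.63 (SE 0.17, adjusted p = 0.51 in limma), a 1.55-fold higher signal. *Serping1*, the inhibitor of complement C1, was at 7.21, 6.91 and 7.22 in FIRE -/- against 6.87, 6.61 and 6.05 in FIRE +/+ hippocampus. B09 of FIRE -/- was only 0.04 above E07 of FIRE +/+, and the group difference leaned on the low FIRE +/+ array G07. The log2 fold change came to 0.60 (SE 0.20, adjusted p = 0.85 in limma), and 0.37 without G07. *Timp1*, an inhibitor of matrix metalloproteinases, was at 3.37, 3.90 and 3.74 in FIRE -/- against 3.06, 3.54 and 2.996 in FIRE +/+ hippocampus. It was below the array median on all 6 arrays, and A09 lay under F07, so the genotypes overlapped. Its log2 fold change was 0.47 (SE 0.18, adjusted p = 0.99 in limma).

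*Fbln5*, fibulin 5, a protein of elastic fibres, was at 6.08, 5.78 and 5.99 in FIRE -/- against 5.32, 5.52 and 5.43 in FIRE +/+ hippocampus. Its genotypes did not overlap, and the log2 fold change of 0.52 (SE 0.11) had the second smallest p of the members, with an adjusted p of 0.21 in limma. *Cp*, ceruloplasmin, a copper-binding ferroxidase that astrocytes also carry on their surface, was at 6.31, 6.37 and 6.31 in FIRE -/- against 6.06, 5.91 and 5.52 in FIRE +/+ hippocampus. The FIRE -/- arrays were close together (SD 0.04) and the FIRE +/+ arrays spread out (SD 0.28), with G07 lowest. The log2 fold change came to 0.50 (SE 0.14, adjusted p = 0.57 in limma), and 0.34 without G07. The remaining 4 secreted proteins overlapped between genotypes. *Lcn2*, lipocalin 2, an iron-siderophore-binding protein that is among the most strongly induced genes in inflamed astrocytes, had a mean of 3.94 ± 0.34 in FIRE -/- and 3.68 ± 0.21 in FIRE +/+ hippocampus (SD, n = 3 each). H07 and B09 were at 4.15 and 4.11, above all FIRE +/+ arrays, while A09 at 3.55 was among them. *Ptx3*, a pattern-recognition pentraxin, and *Srgn*, the granule proteoglycan serglycin, had log2 fold changes of 0.09 and 0.0033. *Clcf1*, a cytokine of the interleukin-6 family, had one of -0.18, with a 95% confidence interval from -0.75 to 0.40.

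Receptors and surface proteins were mixed, with 3 of 9 measured genes higher and 1 lower at an unadjusted p under 0.05. Of all clusters, 1.79% were higher and 2.95% lower at that p. *Emp1*, a small epithelial membrane protein of the A2 panel, was at 6.27, 6.10 and 6.34 on A09, B09 and H07, against 5.88, 5.59 and 5.80 on E07, F07 and G07. All FIRE -/- arrays were above all FIRE +/+ arrays, and the log2 fold change was 0.48 (SE 0.11, adjusted p = 0.33 in limma). *S1pr3*, a receptor for sphingosine 1-phosphate, was at 6.68, 6.60 and 6.57 in FIRE -/- against 6.35, 6.41 and 6.20 in FIRE +/+ hippocampus, again without overlap. Its log2 fold change was 0.30 (SE 0.09, adjusted p = 0.71 in limma). *Osmr*, the receptor subunit for oncostatin M, a member of the interleukin-6 family, was at 5.80, 6.13 and 5.87 in FIRE -/- against 5.68, 5.51 and 5.69 in FIRE +/+ hippocampus. A09 was only 0.11 above the highest FIRE +/+ array, and the log2 fold change was 0.31 (SE 0.11, adjusted p = 0.94 in limma), or 0.21 without B09.

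*Cd14*, the co-receptor for lipopolysaccharide, belongs to the A2 panel but is best known from microglia and other myeloid cells. It was the only member that was lower in FIRE -/- hippocampus at an unadjusted p under 0.05. It was at 2.34, 2.65 and 2.72 in FIRE -/- against 3.03, 3.26 and 3.03 in FIRE +/+ hippocampus, without overlap and below the array median on all 6 arrays. The log2 fold change was -0.54 (SE 0.13, adjusted p = 0.35 in limma). *Csf1r* itself lies on the same chromosome, 18, as *Cd14*, with 197 protein-coding genes between them. On the same 6 arrays all 16 measured microglial genes were lower in FIRE -/- hippocampus at an unadjusted p under 0.05, and the part of microglia in the *Cd14* value was not tested. *Cd44*, the hyaluronan receptor, had a log2 fold change of 0.29 (95% confidence interval -0.03 to 0.60) with B09 highest at 4.97, and on H07 its signal of 4.46 was within the FIRE +/+ range of 4.33 to 4.49. Without B09 its log2 fold change was 0.16. The other 4 measured surface proteins overlapped between genotypes. *Cd109*, a membrane-anchored protein that binds transforming growth factor beta, *Steap4*, a metalloreductase, *Slc10a6*, a transporter of sulphated steroids, and *Tm4sf1*, a tetraspanin-like protein best known from endothelium, had log2 fold changes of 0.13, 0.11, 0.07 and -0.11. *Steap4* was negative, at -0.02, without B09.

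Genes of interferon response and antigen presentation, which carry much of the A1 panel, were above 0 in 2 of the 4 measured members and below 0 in the other two. None of the 4 had an unadjusted p under 0.05, their log2 fold changes ran from -0.36 to 0.18, and their median was -0.05. *Psmb8* and *Iigp1* were below the array median on all hippocampus arrays, so a small response in them could go unseen. *Gbp2*, an interferon-induced GTPase that is often used as an A1 marker, was at 4.45, 4.50 and 4.48 on A09, B09 and H07, against 4.30, 4.13 and 4.46 on E07, F07 and G07. A09 lay under G07, with a log2 fold change of 0.18 (95% confidence interval -0.06 to 0.42). *H2-T23*, which encodes the non-classical class I molecule Qa-1, was at 5.18, 5.14 and 5.13 in FIRE -/- against 5.24, 5.32 and 5.53 in FIRE +/+ hippocampus. This was the second member whose FIRE -/- arrays were all below the FIRE +/+ arrays, with a log2 fold change of -0.21 (95% confidence interval -0.44 to 0.02), and of -0.13 without G07, the highest FIRE +/+ array. *Psmb8*, a catalytic subunit of the immunoproteasome, was at 2.93, 3.06 and 3.22 in FIRE -/- against 3.17, 3.17 and 3.94 in FIRE +/+ hippocampus. H07 lay above E07 and F07, and the log2 fold change of -0.36 was -0.10 without the high FIRE +/+ array G07. *Iigp1*, an interferon-induced GTPase on chromosome 18 with 15 protein-coding genes between it and *Csf1r*, overlapped between genotypes at a log2 fold change of 0.11.

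The 5 measured enzymes and chaperones were all above 0, against 52.5% of all clusters. The log2 fold changes were small, between 0.08 and 0.22, and none had an unadjusted p under 0.05. *B3gnt5*, which starts lacto-series glycolipids, was at 0.22, and *Aspg*, an asparaginase, at 0.21. *Fkbp5*, a co-chaperone of the glucocorticoid receptor and a classical target of glucocorticoids, was at 0.12 (95% confidence interval -0.22 to 0.45). *Sphk1*, the kinase that makes sphingosine 1-phosphate, the ligand of *S1pr3*, was at 0.09, and *Tgm1*, a transglutaminase, at 0.08. Each of these intervals included 0.

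Set by panel, the differences were not spread evenly. All 11 pan-reactive genes had a log2 fold change above 0, against 52.5% of all clusters, with a median of 0.30. Of them, 7 were higher at an unadjusted p under 0.05, where 1.79% of all clusters were. In 6 all FIRE -/- arrays lay above all FIRE +/+ arrays, as in 4.46% of all clusters. Of the 8 measured A1 genes, 6 were above 0, the median was 0.11, and 2, *Serping1* and *Fbln5*, were higher at an unadjusted p under 0.05. Of the 11 A2 genes, 8 were above 0, the median was 0.08, and 1 was higher, *Emp1*, and 1 lower, *Cd14*, where 2.95% of all clusters were lower. Difference between panels was not tested. The mean signal of the pan-reactive genes was 6.16, 6.40 and 6.19 on A09, B09 and H07, against 5.91, 5.91 and 5.86 on E07, F07 and G07. For A1 genes the arrays were at 5.48, 5.48 and 5.61 in FIRE -/- against 5.47, 5.37 and 5.38 in FIRE +/+ hippocampus, with A09 and B09 barely above E07. For A2 genes they were at 4.61, 4.61 and 4.68 against 4.59, 4.57 and 4.65, and the genotypes overlapped.

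**Figure D2:**
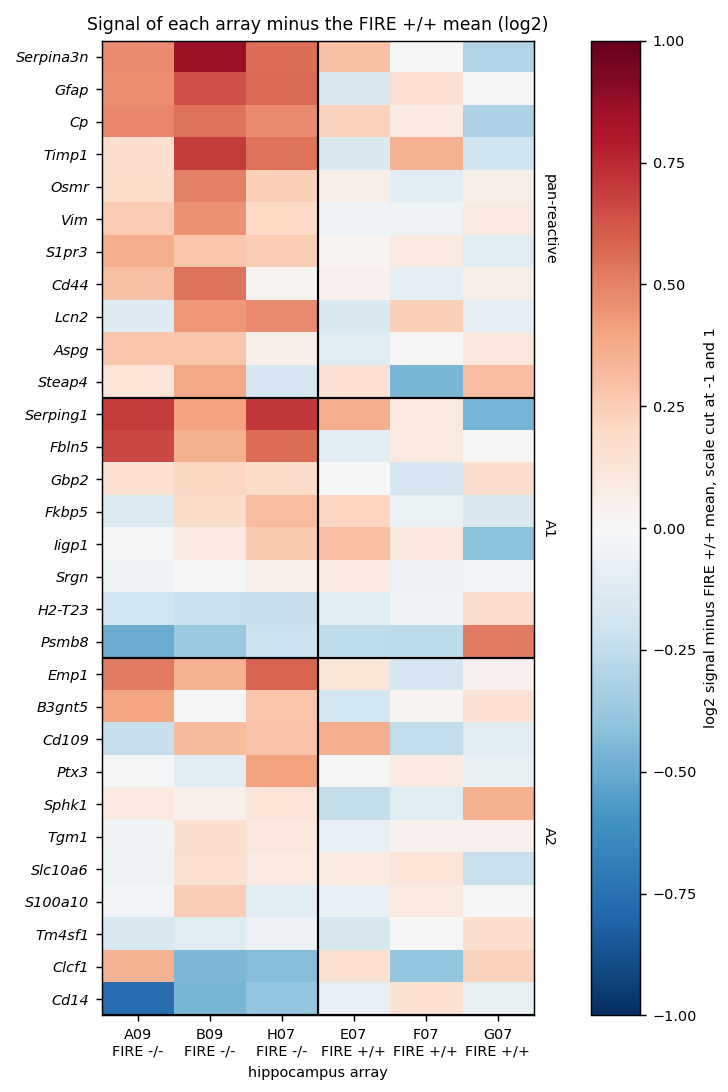
Log2 signal of each hippocampus array minus the FIRE +/+ mean of the same gene (colour scale, red above and blue below) for 30 reactive astrocyte genes (rows, grouped by panel and ordered by log2 fold change within it) on 6 arrays (columns, FIRE -/- left of the line). The pan-reactive rows from *Serpina3n* to *S1pr3* are red on all 3 FIRE -/- arrays, whereas the A2 rows from *Emp1* to *Cd14* run from red to blue.

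The genes did not move as 1 block from array to array. On B09 and on H07, 23 of the 30 genes were above the FIRE +/+ mean, and on A09 17 were, against 15 or 16 on each FIRE +/+ array. For A09 and B09 the share of all clusters above that mean was not counted. The median deviation from the FIRE +/+ mean was 0.14 on A09, 0.26 on B09 and 0.22 on H07. Among the 10 genes that were higher at an unadjusted p under 0.05, B09 was the highest FIRE -/- array in 6 (*Gfap*, *Vim*, *Serpina3n*, *Cp*, *Timp1* and *Osmr*) and the lowest in 3 (*Serping1*, *Fbln5* and *Emp1*). G07 was the lowest FIRE +/+ array in 5 of the 10 (*Serpina3n*, *S1pr3*, *Cp*, *Serping1* and *Timp1*). The signal of G07 was also less spread than that of the other hippocampus arrays, with an SD over clusters of 2.56 against 2.63 to 2.65, and the part of this in the low values was not tested.

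H07 is the FIRE -/- array that shares its code number with all FIRE +/+ arrays. Over all 30 measured genes, H07 was above every FIRE +/+ array in 16, as in 22.9% of all clusters, and below every one in 4, *H2-T23*, *Clcf1*, *S100a10* and *Cd14*, as in 19.5%. The 10 genes that were higher at an unadjusted p under 0.05 are among the 16, but that p was computed with H07 included. Within code number 07 the log2 fold change of these 10 genes ran from 0.20 for *Vim* to 0.71 for *Serping1*, with *Gfap* at 0.57. The median over all 30 genes was 0.22, and 23 of the 30 were above 0, against 54.2% of all clusters. At an unadjusted p under 0.05, 4 members were higher in that comparison, against 1.40% of all clusters, and none was lower, against 1.81%. The comparison has 1 FIRE -/- array and takes its spread from the FIRE +/+ arrays. The smaller differences were less steady, since *Cd44* was at 0.03, *Steap4* at -0.17 and *S100a10* at -0.11 within code number 07.

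**Figure D3:**
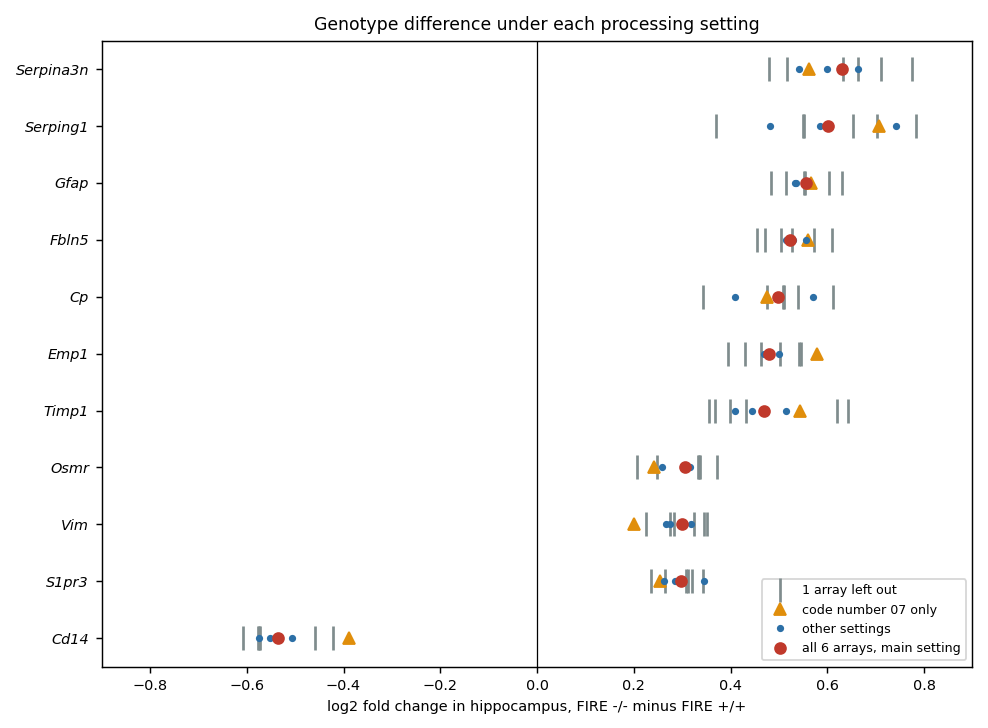
Log2 fold change in the hippocampus, FIRE -/- minus FIRE +/+ (x axis), of the 11 reactive astrocyte genes with an unadjusted limma p under 0.05 (y axis) under each processing setting. Grey bars leave out 1 array, triangles use only the arrays with code number 07, small dots are other settings and large dots use all 6 arrays. No setting moved any of the 11 across 0, and *Serping1* had the widest range, from 0.37 to 0.78. In all but *Timp1* the genotypes did not overlap, so leaving out an array or using code number 07 alone could not change the sign. Settings of the moderation or of the clusters tested change p-values and not the fold change.

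The promoters of the members were searched for short motifs that the named inducers are known to use. RefSeq promoter sequence, 250 bases before the annotated start in the build GRCm38.p6, was at hand for 26 of the 32 members, several of which have more than 1 start. The STAT motif TTCNNNGAA, which reads the same on both strands, was found in the promoters of 5 members, *Emp1*, *Psmb8*, *Sphk1*, *Steap4* and *Tgm1*. Counted by promoter it was in 6 of the 35 of the members and in 7.02% of all 32851. The interferon response motif GAAANNGAA or its reverse complement was found in 6, *Gbp2*, *H2-T23*, *Sphk1*, *Srgn*, *Tgm1* and *Tm4sf1*. That is in 7 of the 35 promoters and in 7.13% of all promoters. For both motifs the windows of neighbouring *Sphk1* starts overlap, so a single *Sphk1* site was counted in more than 1 promoter. For NF-kB only the 9-base string GGGANTTCC and its reverse complement were searched, which were found in 0 of the 35 promoters and in 1.43% of all promoters. NF-kB sites of another length or other letters were not searched. Of the 10 genes that were higher at an unadjusted p under 0.05, 9 had promoter sequence at hand (*Serping1* did not), and of these *Emp1* held a STAT match, while *Steap4*, *Sphk1* and *Tgm1*, which held one, had log2 fold changes of 0.11, 0.09 and 0.08. A match is a string of letters and not a bound site, and no match says only that these letters are not in the window. The sequences given are *Gfap* and *Serpina3n*, the leading filament and secreted genes, without a match, and *Emp1*, *Steap4* and *Gbp2*. For *Emp1* the start with matches is given, which begin 120 and 22 bases before it, and the other annotated start had 0. In *Steap4* the match begins 116 bases before the start, and in *Gbp2* the interferon motif begins 58 bases before it. Sequences run 5′ to 3′ on the strand of the gene and capitals mark the matches.
Gfap (chr11:102897201-102897450, - strand): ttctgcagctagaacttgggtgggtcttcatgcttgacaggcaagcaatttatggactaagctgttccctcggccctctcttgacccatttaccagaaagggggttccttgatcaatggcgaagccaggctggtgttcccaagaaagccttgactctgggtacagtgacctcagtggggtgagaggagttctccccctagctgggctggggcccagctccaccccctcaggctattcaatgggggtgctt
Serpina3n (chr12:104406458-104406707, + strand): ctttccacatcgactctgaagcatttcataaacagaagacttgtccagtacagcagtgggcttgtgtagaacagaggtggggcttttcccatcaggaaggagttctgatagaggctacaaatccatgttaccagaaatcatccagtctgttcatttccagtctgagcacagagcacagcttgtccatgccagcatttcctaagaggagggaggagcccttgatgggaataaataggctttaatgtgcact
Emp1 (chr6:135362681-135362930, + strand): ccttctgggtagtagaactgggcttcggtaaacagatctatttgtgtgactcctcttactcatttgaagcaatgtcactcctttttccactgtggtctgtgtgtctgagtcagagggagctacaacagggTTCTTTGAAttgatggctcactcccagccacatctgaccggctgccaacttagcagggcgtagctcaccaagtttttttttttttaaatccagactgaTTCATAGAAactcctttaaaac
Steap4 (chr5:7960222-7960471, + strand): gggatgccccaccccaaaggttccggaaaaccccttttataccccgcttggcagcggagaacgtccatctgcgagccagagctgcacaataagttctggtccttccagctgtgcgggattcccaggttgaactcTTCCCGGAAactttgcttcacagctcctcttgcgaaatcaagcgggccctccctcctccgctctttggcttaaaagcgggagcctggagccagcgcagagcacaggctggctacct
Gbp2 (chr3:142620413-142620662, + strand): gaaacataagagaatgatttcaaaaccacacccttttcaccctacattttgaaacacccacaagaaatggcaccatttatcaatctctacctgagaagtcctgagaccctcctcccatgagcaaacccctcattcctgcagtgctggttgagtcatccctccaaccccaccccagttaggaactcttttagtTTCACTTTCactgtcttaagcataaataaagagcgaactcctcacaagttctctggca

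Further genes of the same pathways were followed in lists. Of 10 other reactive astrocyte markers 8 were measured, and none had an unadjusted p under 0.05 in the hippocampus. The largest differences were *Thbs1*, thrombospondin 1, at a log2 fold change of 0.41, *Cxcl10*, an interferon-induced chemokine, at 0.25, and *Cxcl1*, a neutrophil chemokine, at -0.24. *Stat3* itself was at 0.19, with all FIRE -/- arrays above the FIRE +/+ arrays. The complement gene *C3*, a widely used A1 marker, had no cluster of its own. Of 14 genes of interleukin-6 family signalling, whose receptors act on astrocytes through STAT3, 12 were measured, with a median log2 fold change of 0.0054. At an unadjusted p under 0.05 none was higher, where 1.79% of all clusters were, and 1 was lower, where 2.95% were. This was the receptor gene *Il6ra*, with 5.39 ± 0.08 in FIRE -/- and 5.82 ± 0.07 in FIRE +/+ hippocampus (SD, n = 3 each). Its log2 fold change was -0.43 (adjusted p = 0.21 in limma), and the part of microglia in this value was not tested. *Tyk2*, a Janus kinase, and *Il11*, a cytokine of the family, followed at -0.24 and -0.22. *Socs3*, a classical target of STAT3, was at 0.11.

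Of 8 genes for the microglial inducers of the A1 state and their receptors, 3 passed the adjusted threshold, all of C1q and all lower. The complement genes *C1qb*, *C1qc* and *C1qa* fell by 3.16, 3.06 and 2.73 on the log2 scale in FIRE -/- hippocampus (limma adjusted p = 0.00074, 3.4e-05 and 0.00058). *Il1a* and the TNF receptor gene *Tnfrsf1b* had log2 fold changes of -0.78 and -0.81 (limma adjusted p = 0.30 and 0.21), which did not pass, and *Tnf* was at -0.01. Genes induced by interferon, a list of 12 measured, had a median log2 fold change of 0.10, and 11 of the 12 were above 0, against 52.5% of all clusters. At an unadjusted p under 0.05 none was higher and 1, *Bst2*, was lower. In the ileum all 12 were above 0, against 47.1% of all clusters, with a median of 0.36. There 4 were higher at an unadjusted limma p under 0.05, where 1.85% of all clusters were.

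Of 14 genes typical of resting astrocytes, among them *Aqp4*, *Slc1a2* and *Aldh1l1*, none had an unadjusted p under 0.05, 6 were above 0 and the median log2 fold change was -0.01. Their mean signal was 9.55, 9.61 and 9.61 on A09, B09 and H07, against 9.64, 9.62 and 9.50 on E07, F07 and G07, and their log2 fold changes ran from -0.12 for *Fgfr3* to 0.13 for *Slc1a3*. In 2 of the 14, *Fgfr3* and *Aldoc* (-0.06), all FIRE -/- arrays lay below all FIRE +/+ arrays, as in 5.20% of all clusters. In 0 they all lay above, as in 4.46%. Genes of meningeal fibroblasts, which also make vimentin and many matrix proteins, also had positive differences in FIRE -/- hippocampus. All 13 had a log2 fold change above 0, against 52.5% of all clusters, with a median of 0.34. At an unadjusted p under 0.05, 7 were higher, where 1.79% of all clusters were, though none passed the adjusted threshold. The largest differences were *Slc13a4* and *Ogn* at 0.72 and *Fmod* at 0.67. Their mean signal was 6.74 to 6.90 in FIRE -/- and 6.30 to 6.54 in FIRE +/+ hippocampus, with G07 lowest. *Col3a1*, the dimmest of the 13, averaged 4.74 in FIRE -/- and 4.70 in FIRE +/+ hippocampus. The part of meningeal cells in the values of *Fbln5*, *Serping1*, *Cp*, *Vim*, *Timp1* and *Emp1* was not tested.

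Genes of choroid plexus, the epithelium that makes cerebrospinal fluid, had a median log2 fold change of 0.87. All 10 measured were above 0, against 52.5% of all clusters. Their mean signals were from 6.93 to 8.08 in FIRE -/- and from 4.97 to 7.89 in FIRE +/+ hippocampus, with F07 far lowest and the genotypes overlapping, and 0 of 10 had an unadjusted p under 0.05. The part of choroid plexus in the values of the members was not tested. Genes of endothelium, mural cells, ependyma, oligodendrocytes and hippocampal neurons had 0 at that p, and the median log2 fold change of these lists ran from 0.01 to 0.19. The mean of the 16 microglial genes was 3.62 to 3.78 in FIRE -/- and 6.47 to 6.71 in FIRE +/+ hippocampus, and 14 of them passed the adjusted threshold, each lower.

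**Figure D4:**
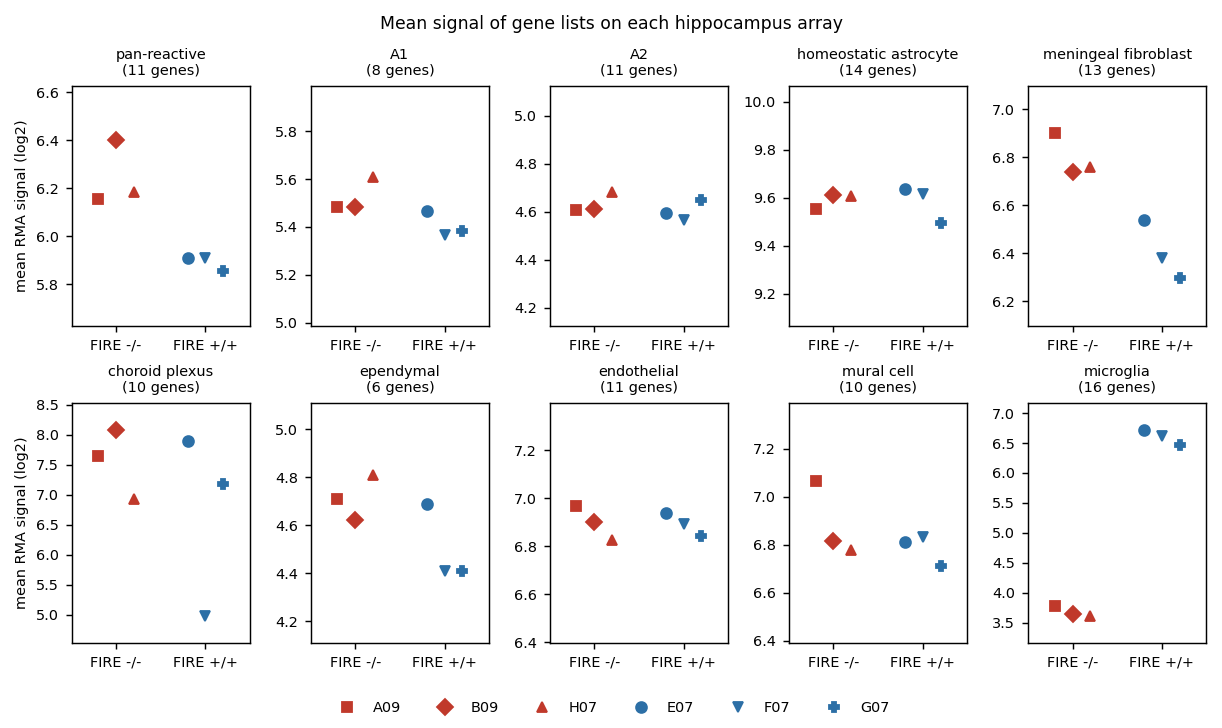
Mean RMA log2 signal (y axis, each panel with its own range) of 10 gene lists on the 6 hippocampus arrays, by genotype (x axis), with 1 symbol per array. FIRE -/- arrays lay above FIRE +/+ arrays for the pan-reactive, A1 and meningeal fibroblast lists, below them for microglia, and overlapped for A2, homeostatic astrocyte and choroid plexus genes.

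In the ileum, where GFAP marks the glia of the gut's own nervous system, the same genes as a set did not lean to either side. None of the 30 passed the threshold, the smallest adjusted p in limma was 0.999, and 0% of all clusters passed. There were 15 genes above 0 and 15 below, against 47.1% of all clusters above, and the median log2 fold change was -0.0046, against -0.0099 over all clusters. By panel, 6 of 11 pan-reactive, 6 of 8 measured A1 and 3 of 11 A2 genes were above 0. At an unadjusted p under 0.05, 1 gene was higher, where 1.85% of all clusters were, and 0 were lower, where 1.54% were. The test without moderation gave the same counts. Log2 fold changes of the 30 ran from -0.57 for *Steap4* to 0.78 for *Sphk1*. *Gfap* was below the array median on all 6 ileum arrays, at 3.47, 3.53 and 3.98 on F09, G09 and H09 (FIRE -/-), against 3.17, 3.49 and 3.77 on C09, D09 and E09 (FIRE +/+). The genotypes overlapped, with a log2 fold change of 0.18 (95% confidence interval -0.29 to 0.66). *Vim* was bright, at 10.19, 10.59 and 10.44 in FIRE -/- against 10.03, 10.72 and 10.71 in FIRE +/+ ileum, and overlapped too, at -0.08 (95% confidence interval -0.59 to 0.42).

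The gene that stood out in the ileum was *Sphk1*. It was at 6.55, 6.83 and 6.39 on F09, G09 and H09, against 6.20, 5.83 and 5.42 on C09, D09 and E09. All FIRE -/- arrays were above all FIRE +/+ arrays, as in 3.52% of all clusters, while 0 members had them all below, as in 4.52%. Its log2 fold change was 0.78 (SE 0.22, adjusted p = 0.999 in limma). The B cell-rich arrays F09 and D09 were in the middle of their groups, and with each array left out in turn the value ran from 0.58 to 0.97. The spread between arrays was wider than in the hippocampus, since the mean of the 30 genes had a pooled SD within genotypes of 0.0362 in the hippocampus and 0.135 in the ileum. *Serpina3n*, for example, was at 8.51, 6.97 and 7.24 in FIRE -/- against 6.86, 8.64 and 7.22 in FIRE +/+ ileum, where the B cell-rich arrays F09 and D09 were the highest of each group, and its log2 fold change of 0.0039 had a 95% confidence interval from -1.30 to 1.31. The part of B cells in these values was not tested.

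**Figure D5:**
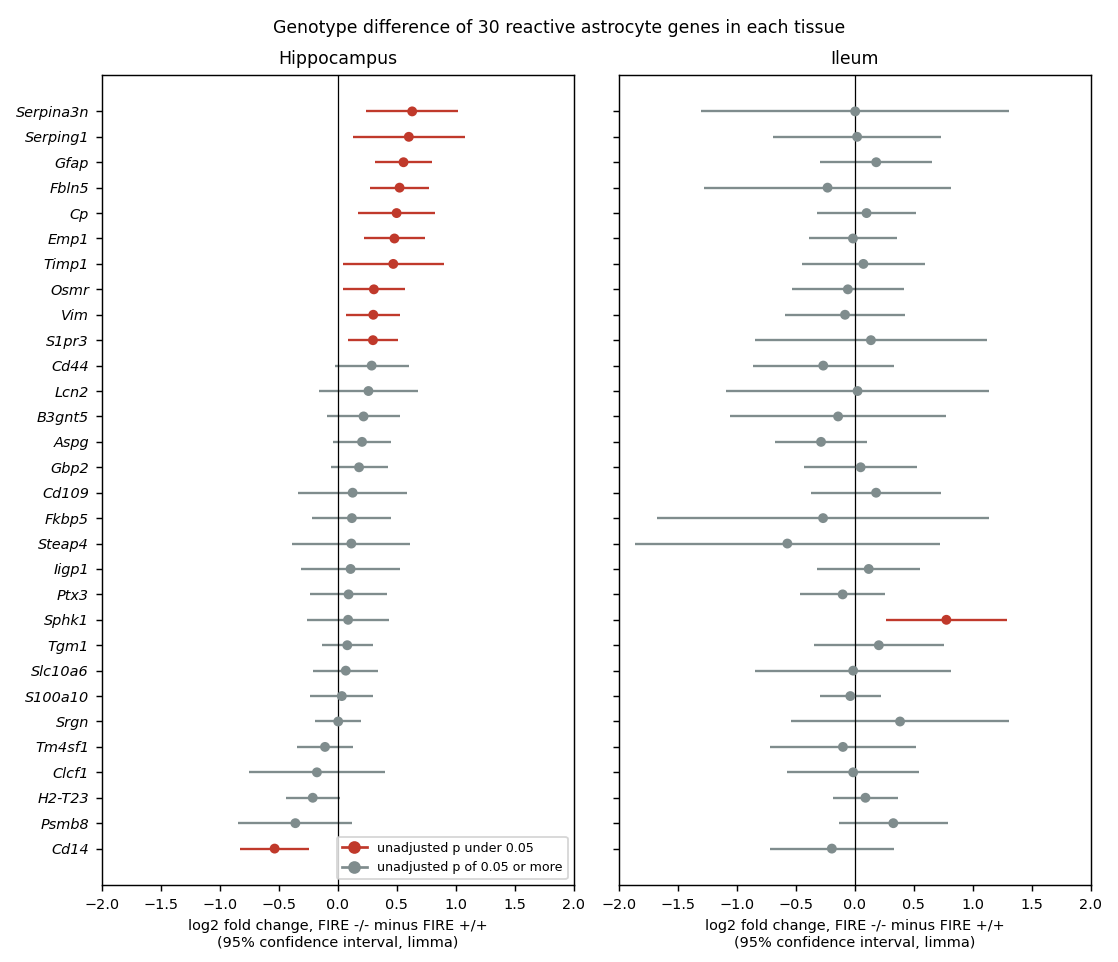
Log2 fold change, FIRE -/- minus FIRE +/+, with its 95% confidence interval from limma (x axis) for 30 reactive astrocyte genes (y axis, ordered by the hippocampus value) in the hippocampus (left) and the ileum (right). Red marks an unadjusted p under 0.05, which 11 genes had in the hippocampus and *Sphk1* had in the ileum. The widest interval was -1.67 to 1.14 for *Fkbp5* in the ileum and -0.75 to 0.40 for *Clcf1* in the hippocampus.

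Genotype effects were then compared directly between hippocampus and ileum, in a single fit of all 12 arrays. No member passed the adjusted threshold, where 0.0895% of all clusters did, and the smallest adjusted p of a member was 0.9997. At an unadjusted p under 0.05 the effect in the hippocampus exceeded that in the ileum in 2 genes, where 1.75% of all clusters did so, and was under it in 1, where 2.46% were. *Emp1* had a difference of effects of 0.49 (95% confidence interval 0.06 to 0.93). In the ileum it was among the brightest members, at 11.05, 10.73 and 11.08 in FIRE -/- against 10.72, 11.02 and 11.17 in FIRE +/+ mice, and the genotypes overlapped. *Aspg* had a difference of 0.49 (95% confidence interval 0.05 to 0.93). It was at 4.13, 4.12 and 3.90 in FIRE -/- against 3.72, 3.85 and 3.96 in FIRE +/+ hippocampus, and at 5.11, 4.87 and 5.31 in FIRE -/- against 5.64, 5.19 and 5.33 in FIRE +/+ ileum. *Sphk1* had a difference of -0.69 (95% confidence interval -1.31 to -0.07), and in the hippocampus it was at 5.41, 5.37 and 5.44 in FIRE -/- against 5.08, 5.20 and 5.67 in FIRE +/+ mice, where G07 was above and the other FIRE +/+ arrays below the FIRE -/- arrays. For *Gfap* the difference of effects was 0.37, with a 95% confidence interval from -0.15 to 0.90, and for *Serpina3n* 0.63, from -0.76 to 2.01, so neither effect was shown to differ between the tissues.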

How the data were processed

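RNA was labelled with a whole-transcript kit and hybridised to Affymetrix Mouse Gene ST arrays. The deposited log2 values of 35556 transcript clusters were made by the authors with RMA (background correction, quantile normalization and a log2 summary), in a version that the sources used here do not give, and were used as deposited. Symbols came from the platform annotation. The 21218 clusters with 1 symbol were tested, and those with several symbols (1881) or no name (12457) were not used. Detection calls were not used.

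Each tissue was fitted alone in R 4.3.3 by lmFit and eBayes of limma 3.58.1, FIRE -/- minus FIRE +/+, with Benjamini-Hochberg adjustment over all 21218 clusters at 0.05. The effects in both tissues were compared in a fit of all 12 arrays. The script was tested on simulated data. For arrays their number limits the precision. A gene is its cluster of highest mean.

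The members, lists, named-gene rule and tests were chosen with earlier results of these data known. Values on every array are given for *Gfap*, *Vim* and *Csf1r*, for members with an unadjusted p under 0.05 in a tissue or between tissues, and for members whose genotypes do not overlap at an absolute log2 fold change of at least 0.25. *H2-T23* and *Gbp2* were added after their values were seen. Of the pathway lists the 3 largest changes are named, with others added after their values were seen. Alternatives were the moderation, unnamed clusters included, dim clusters left out, quantile normalization again within the tissue, weighted arrays, the labelled sex, 1 fit for both tissues, the mean of a symbol's clusters, the code number as a block or 07 alone, leaving out D09 and F09, and leaving out each array. Promoter sequence is from RefSeq, build GRCm38.p6.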

Additional observations from a re-analysis of the deposited data

Results flagged for a closer look

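For 3 reactive astrocyte genes every FIRE -/- array deviated from the FIRE +/+ mean in one direction in the hippocampus and in the opposite direction in the ileum. The share of all clusters that did so was not counted, so these genes were not shown to stand out. The effect in the hippocampus minus the effect in the ileum was 0.55 for *Cd44* (95% confidence interval -0.12 to 1.23), 0.49 for *Aspg* (0.05 to 0.93) and -0.30 for *H2-T23* (-0.63 to 0.02). None passed after adjustment over all clusters (limma adjusted p = 0.9997 for each), so a difference between the tissues was not shown. *Cd44* had log2 fold changes of 0.29 in the hippocampus and -0.27 in the ileum, *Aspg* of 0.21 and -0.29, and *H2-T23* of -0.21 and 0.09. In the hippocampus *Cd44* was at 0.16 without B09 and *H2-T23* at -0.13 without G07. *Cd44* in the ileum was at 6.72, 7.18 and 7.13 in FIRE -/- against 6.77, 7.33 and 7.72 in FIRE +/+ mice, with overlap.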

How the results depend on the processing

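In the hippocampus 17 alternatives were run, in the ileum 16 and between tissues 18. The number of members called in the hippocampus was 0 in all but 1, the trend and robust moderation, where it was 1 (*Gfap*), and it was 0 under every alternative in the ileum and between tissues. The number higher at an unadjusted p under 0.05 in the hippocampus, 10 in the main setting, was 3 with all 12 arrays in one fit, 4 with the code number as a block and 4 with code number 07 alone. With 1 array left out it ran from 8 to 12. The number lower was 0 without dim clusters, 0 with the block or code number 07 alone, and 3 with sex as a covariate, which places B09 with the females against its readings, and it was from 1 to 2 with 1 array left out. The median log2 fold change in the hippocampus was 0.29 when dim clusters were left out, which keeps 18 members, 0.21 with array weights, 0.22 with the block or code number 07 alone, and from 0.15 to 0.25 with 1 array left out, highest without G07. The number higher in the ileum was 2 without D09 and F09, and from 1 to 2 with 1 array left out (2 without H09, D09 or E09). The number lower in the ileum, 0 in the main setting, was 1 with sex, 1 without D09 and F09, and from 0 to 1 with 1 array left out. The cause of these shifts was not tested. Outside the main setting, shares of all clusters at an unadjusted p under 0.05 were counted only for code number 07 alone.

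In the hippocampus 7 members changed sign under an alternative, and their values in the main setting were small, at most 0.11 in size. With the block or code number 07 alone *Steap4* was at -0.17 and *S100a10* at -0.11. *Srgn* was at -0.016 after a second quantile normalization, -0.0018 with sex and -0.0029 with array weights, and *Sphk1* at -0.0016 with sex. With 1 array left out *Steap4* ran from -0.11 to 0.27, *Iigp1* from -0.10 to 0.26, *Srgn* from -0.024 to 0.046, *Slc10a6* from -0.043 to 0.13, *Ptx3* from -0.065 to 0.19, *S100a10* from -0.071 to 0.11 and *Sphk1* from -0.030 to 0.26. In the ileum 20 of the 30 members changed sign under an alternative, and only some are named here. The largest of them in the main setting was *Fkbp5* at -0.27, which ran from -0.83 to 0.35 with 1 array left out. Without D09 and F09 *Vim* was at 0.14, *Fbln5* at 0.40 and *Osmr* at 0.059. *Serpina3n* was at -0.059 with sex and -0.027 with array weights, and *Emp1* at 0.0091 after a second quantile normalization. With 1 ileum array left out *Vim* ran from -0.31 to 0.034, *Serpina3n* from -0.46 to 0.54, *S1pr3* from -0.21 to 0.54, *Cp* from -0.042 to 0.28, *Serping1* from -0.28 to 0.24, *Fbln5* from -0.61 to 0.31, *Timp1* from -0.11 to 0.26, *Osmr* from -0.27 to 0.084 and *Emp1* from -0.14 to 0.10. No paired analysis was possible because the labels give the samples no shared replicate numbers. Signal near the floor, as of *Cd14*, *Ptx3* and *Slc10a6* in the hippocampus, compresses fold changes on arrays. Of the 30 measured members, 12 were below the array median on all hippocampus arrays. Beside these, they were *Lcn2*, *Steap4*, *Timp1*, *Aspg*, *Psmb8*, *Iigp1*, *B3gnt5*, *Clcf1* and *Tgm1*.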
